A study of Mus musculus with 8 samples.

Results

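The genes described here are 39 mouse genes of the postsynapse and its calcium signalling, chosen by name from the rows of a striatal count table that holds 55376 features. They encode postsynaptic scaffolds (4 Dlg, 4 Dlgap, 3 Shank and 3 Homer genes), 4 spine adaptors, 3 exchange factors for ARF GTPases, 4 GTPase-activating proteins for RAP, the neuronal calcium sensors Hpca and Ncs1, neurogranin and neurochondrin, 2 calmodulin genes, the 4 subunits of calcium/calmodulin-dependent protein kinase II (CaMKII) and 4 genes of the CaM kinase cascade. The rule that chose them used no measured value, but earlier results of these data were known when they were chosen.

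At an excitatory synapse, scaffold proteins anchor glutamate receptors under the membrane in layers. Membrane-associated guanylate kinases (MAGUKs) bind receptor tails, SAPAP proteins link MAGUKs to SHANK proteins, and Homer proteins tie SHANK to metabotropic glutamate receptors. Calcium that enters the spine binds calmodulin, which activates CaMKII and the CaM kinase kinases. In the striatum most such spines belong to medium spiny neurons (MSNs), the GABAergic projection neurons that receive cortical and thalamic input.

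RNA was sequenced from the left striatum of 4 Cre-positive mice of the line D9-Cre-Bcl11b tm1.1Leid (spelled D9_Cre_Bcl11b_tm1.1_Lead in the labels, here deletion mice) and 4 Cre-negative mice (control mice), all of strain C57Bl/129S2/Sv, 4 months old and labelled female, with 1 library per mouse. Both groups carried a floxed allele of Bcl11b, the gene of the zinc finger transcription factor CTIP2, and by the methods the control mice were homozygous for it. Cre was driven by a regulatory element of Ppp1r1b, the gene of DARPP-32, so that the deletion was directed to postnatal MSNs and the other cells of the striatum were not targeted. In such bulk tissue, fewer cells of a type and less RNA per cell cannot be told apart.

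Levels are given as CPM (counts scaled to a library of a fixed size) on library sizes adjusted by TMM, a scaling that takes most genes as unchanged. Of all features, 22173 passed the filter on low counts and were tested with edgeR's quasi-likelihood test, with Benjamini-Hochberg adjustment over all of them and a threshold of 0.01. Libraries held 51536311 to 70247098 counts in deletion mice and 47059264 to 50213377 counts in control mice (p = 0.0286 in an exact two-sided permutation test, which can give no smaller value here). Bcl11b measured 145, 141, 151 and 145 CPM in deletion mice 1 to 4, against 477, 368, 446 and 281 CPM in control mice 1 to 4 (log2 fold change −1.43, standard error (SE) 0.13, edgeR adjusted p = 7.06e-05), with counts that cover the whole gene. Of 12 MSN markers 5 fell (Ppp1r1b, Drd2, Penk, Pde10a and Foxp1) and none rose by edgeR; at an unadjusted p under 0.05, 7 were lower and 1 was higher, and DESeq2 called 8 and limma-voom 5. The summed level of these markers was 5847 to 6423 CPM in deletion mice and 6809 to 7768 CPM in control mice. The summed level of 12 cortical excitatory neuron markers was 86.7 to 218 CPM in deletion mice and 91.8 to 217 CPM in control mice, with deletion 4 and control 4 each above every other library. By edgeR 1 of these 12 rose, Cux2 (log2 fold change 0.95, adjusted p = 8.67e-05), and the other 11 did not pass. Of 8 hippocampal markers 1 rose and 1 fell, and of 40 interneuron, glial and vascular markers 0 were called by edgeR (4 at an unadjusted p under 0.05), 1 by DESeq2 and 0 by limma-voom. No marker of these lists was at 0 in all libraries, and the part of any list in the results was not tested.

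Across the 39 genes, all of which passed the filter, 12 fell, 3 rose and 24 did not pass the test in deletion mice. Among all genes tested, 8.78% were called, 3.91% as lower and 4.87% as higher; among the 39, 30.8% fell and 7.69% rose. Calls were more frequent above a floor of abundance, the mean level of the lowest of the 39 (7.58 CPM). Among the 10972 genes at or above it, 6.12% fell and 7.60% rose. This floor does not match the levels of the 39, many of which were far higher. The share that rose among the 39 was thus near the background, and the share that fell was above it. The median log2 fold change of the 39 genes was −0.19, from −0.79 to 0.78, beside a median of −0.00 over all genes tested. Log2 fold changes were below 0 in 24 of the 39 genes (61.5%), against 50.6% of all genes tested. All 4 deletion mice lay below all 4 control mice in 16 of the genes and above them in 7, and 22.0% of all genes tested were apart in this way (10.3% with deletion mice lower and 11.7% higher). Among the 10972 genes above the floor the share apart was 31.7%, and among the 39 it was 59.0%. Leaving out deletion 4 and control 4 was a choice made after the data were seen. In that fit 13 of the 39 genes were called, 9 lower and 4 higher, beside 6.28% of all genes tested. Of the 13, 10 were among the 15. With 1 mouse left out, the fewest calls came without control 3. There 7 of the 39 genes were called, 4 lower and 3 higher, beside 4.86% of all genes tested.

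**Figure D1:**
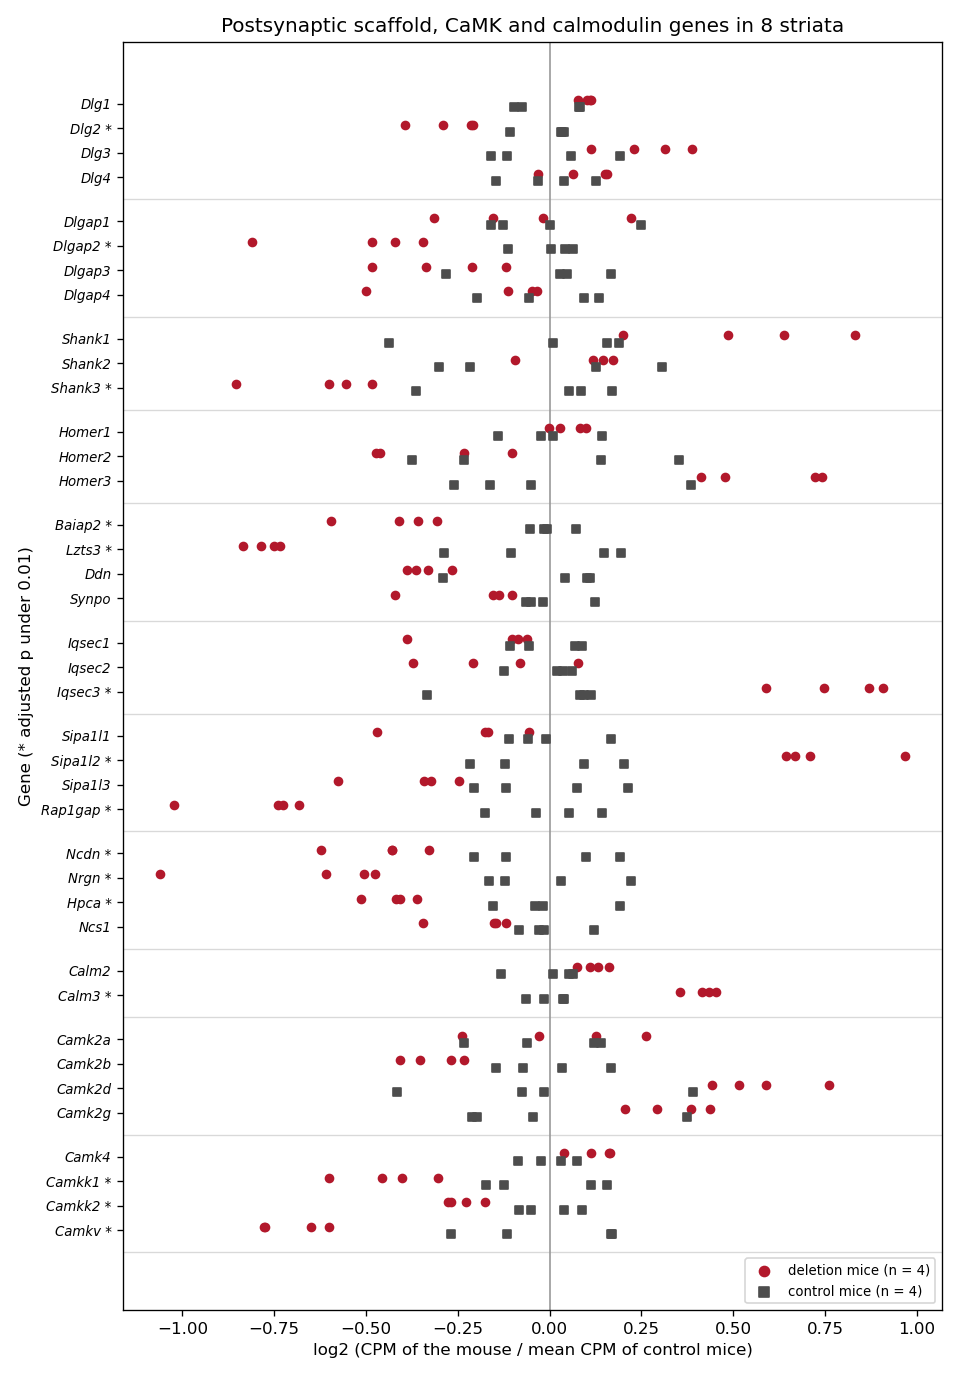
The plot shows, for each of the 39 genes in groups by role, the log2 ratio of every mouse to the mean of the control mice on the x axis, with red circles for the 4 deletion mice, grey squares for the 4 control mice and an asterisk for an adjusted p under 0.01. Most of the genes with an asterisk lie to the left, among them Lzts3, Rap1gap and Camkv, while Iqsec3, Sipa1l2 and Calm3 lie to the right.

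The 4 genes whose promoters are printed here carry the largest decreases with a single listed start site and 2 of the 3 increases, and they show the base composition behind the motif counts that follow. Windows run from 250 bases before to 50 bases after the start in RefSeq (GRCm38.p6), 5′ to 3′ on the strand of the gene, with the hexamer GGCCGG, a GC-rich motif, or its reverse complement, in capitals. They lie at chr2:130642795-130643094 (minus strand) for Lzts3, chr9:107935670-107935969 (plus strand) for Camkv, chr6:121473629-121473928 (minus strand) for Iqsec3 and chr7:16923983-16924282 (minus strand) for Calm3.
Lzts3: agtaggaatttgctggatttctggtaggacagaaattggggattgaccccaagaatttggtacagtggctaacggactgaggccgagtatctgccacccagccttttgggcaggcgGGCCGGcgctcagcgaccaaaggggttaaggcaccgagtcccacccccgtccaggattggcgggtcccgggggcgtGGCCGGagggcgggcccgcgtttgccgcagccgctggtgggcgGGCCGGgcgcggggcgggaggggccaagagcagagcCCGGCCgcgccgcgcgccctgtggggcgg
Camkv: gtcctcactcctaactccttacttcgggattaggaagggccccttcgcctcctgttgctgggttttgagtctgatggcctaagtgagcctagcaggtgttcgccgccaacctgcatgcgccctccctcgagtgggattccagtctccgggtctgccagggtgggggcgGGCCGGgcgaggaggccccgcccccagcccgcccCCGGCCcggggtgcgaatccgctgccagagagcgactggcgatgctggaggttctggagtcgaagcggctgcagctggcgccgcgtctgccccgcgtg
Iqsec3: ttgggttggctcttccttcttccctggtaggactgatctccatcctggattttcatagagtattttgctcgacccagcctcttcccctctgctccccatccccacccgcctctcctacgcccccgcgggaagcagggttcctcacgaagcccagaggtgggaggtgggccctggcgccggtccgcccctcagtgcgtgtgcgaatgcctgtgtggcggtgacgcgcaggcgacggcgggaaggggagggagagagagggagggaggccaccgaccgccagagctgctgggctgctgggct
Calm3: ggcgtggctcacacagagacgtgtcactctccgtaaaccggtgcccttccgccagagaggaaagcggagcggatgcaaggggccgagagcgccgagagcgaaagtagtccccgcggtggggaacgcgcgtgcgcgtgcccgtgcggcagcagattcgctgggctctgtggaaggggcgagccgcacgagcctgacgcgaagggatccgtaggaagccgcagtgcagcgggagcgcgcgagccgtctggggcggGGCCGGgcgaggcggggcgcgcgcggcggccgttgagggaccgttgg
Of the 39 genes 30 had at least 1 such window, 55 windows in all. GGCCGG on either strand was present in 17 of these windows (30.9%), against 29.8% of the 17217 windows of genes tested and 19.0% of all 32851 windows. The full cAMP response element TGACGTCA was in 0 of the 55 windows, against 2.65% of the windows of genes tested and 1.79% of all windows. The windows of Lzts3, Camkv, Iqsec3 and Calm3 held 4, 2, 0 and 1 copies of the hexamer.

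Among the scaffold families, 1 member each of the MAGUK, SAPAP and SHANK families passed the test. Dlg2, Dlgap2 and Shank3 fell, each the only gene of its family past the threshold, while Dlg4, the gene of the main scaffold PSD-95, and the Homer genes did not pass. The MAGUK genes are Dlg1 (SAP97), Dlg2 (PSD-93), Dlg3 (SAP102) and Dlg4. Dlg2, at chromosome 7, 90476672 to 92449247 (plus strand), had 413, 384, 435 and 436 CPM in deletion mice 1 to 4, against 469, 518, 516 and 515 CPM in control mice 1 to 4. Every deletion mouse was below every control mouse, and control 1 was the lowest control. Dlg2 averaged 417 ± 24.7 CPM in deletion mice and 505 ± 24.0 CPM in control mice (SD, n = 4 each), at a log2 fold change of −0.27 (SE 0.06, edgeR adjusted p = 0.00918). Dlg2 passed the threshold without control 1 (adjusted p = 0.00692 by edgeR) but lost its call without any one of the other 7 mice, with adjusted p from 0.0161 to 0.0306. Dlg4 had 260.2, 229, 261 and 245 CPM in deletion mice 1 to 4, against 229, 256, 241 and 212 CPM in control mice 1 to 4. The groups overlapped throughout, and Dlg4 averaged 249 ± 15 CPM in deletion mice and 234 ± 18.6 CPM in control mice (SD, n = 4 each), at a log2 fold change of 0.09 (SE 0.07, edgeR adjusted p = 0.438). Dlg1 and Dlg3 also overlapped between the groups, with log2 fold changes of 0.10 (adjusted p = 0.253) and 0.26 (adjusted p = 0.0529) by edgeR. Per kilobase of exon, Dlg2 made up 23.8 ± 0.40% of the summed level of the 4 Dlg genes in deletion mice and 29.6 ± 1.0% in control mice (SD, n = 4 each), and Dlg3 27.6 ± 1.11% in deletion mice and 23.6 ± 1.63% in control mice.

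Among the SAPAP genes, whose proteins bridge MAGUKs and SHANKs, Dlgap2 fell. Dlgap2, at chromosome 8, 14095865 to 14847680 (plus strand), had 32.1, 25.6, 33.5 and 35.4 CPM in deletion mice 1 to 4, against 41.5, 46.9, 46.2 and 45.0 CPM in control mice 1 to 4. The groups were apart, and deletion 2 was the lowest of all. Dlgap2 averaged 31.6 ± 4.23 CPM in deletion mice and 44.9 ± 2.41 CPM in control mice (SD, n = 4 each), at a log2 fold change of −0.50 (SE 0.09, edgeR adjusted p = 0.00396). Its call was lost without deletion 1 (adjusted p = 0.013), deletion 3 (0.0102), control 2 (0.0135) or control 3 (0.0138) by edgeR. Dlgap3, the most abundant of the family per kilobase of exon (43.1 CPM per kilobase in deletion mice and 52.4 in control mice), measured −0.28 on the log2 scale (edgeR adjusted p = 0.0797). Dlgap1 (−0.05, adjusted p = 0.817) and Dlgap4 (−0.16, adjusted p = 0.364) overlapped between the groups (both by edgeR).

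The SHANK genes encode the large scaffolds deepest in the postsynaptic density, and Shank3 was the most abundant of them per kilobase of exon. Shank3, at chromosome 15, 89499623 to 89560261 (plus strand), had 55.1, 44.7, 57.8 and 53.3 CPM in deletion mice 1 to 4, against 83.8, 91.0, 85.7 and 62.8 CPM in control mice 1 to 4. Deletion mice were all below control mice, with control 4 nearest to them. Shank3 averaged 52.7 ± 5.67 CPM in deletion mice and 80.8 ± 12.4 CPM in control mice (SD, n = 4 each), at a log2 fold change of −0.62 (SE 0.11, edgeR adjusted p = 0.00394). Its call was lost without deletion 1 (adjusted p = 0.0114), deletion 4 (0.0121), control 1 (0.0109), control 2 (0.0133) or control 3 (0.015) by edgeR. Shank1 was higher in all 4 deletion mice, at 15.5 to 24.0 CPM against 9.99 to 15.4 CPM in control mice, but did not pass (log2 fold change 0.56, adjusted p = 0.0317 by edgeR; DESeq2 gave 0.00273). Shank2 overlapped between the groups (log2 fold change 0.09, adjusted p = 0.697 by edgeR). Shank3 held 56.4 ± 1.03% of the family's summed level per kilobase in deletion mice and 70.3 ± 5.84% in control mice, and Shank1 held 18.5 ± 1.51% in deletion mice and 10.4 ± 2.28% in control mice (SD, n = 4 each). The groups did not overlap for either share.

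Homer genes encode the adaptors that join SHANK to group I metabotropic glutamate receptors. By edgeR 0 of the 3 passed, with 1 (Homer3) at an unadjusted p under 0.05, 1 called by DESeq2 and 0 by limma-voom. Homer1, far the most abundant, had 689, 682, 643 and 657 CPM in deletion mice 1 to 4, against 633, 710.0, 584 and 648 CPM in control mice 1 to 4. The groups overlapped, and Homer1 averaged 668 ± 21.5 CPM in deletion mice and 644 ± 52.0 CPM in control mice (SD, n = 4 each), at a log2 fold change of 0.05 (SE 0.07, edgeR adjusted p = 0.656). Counts cover the whole gene, so the long forms and the activity-induced short form of Homer1 were not separated. Homer3 was higher in every deletion mouse (8.03 to 10.1 CPM against 5.05 to 7.88 CPM in control mice, log2 fold change 0.59, adjusted p = 0.022 by edgeR; 0.0012 by DESeq2). Of its exon bases 25.4% lie over Ddx49 on the opposite strand, whose own log2 fold change was 0.25 (SE 0.07, edgeR adjusted p = 0.0253). The strand setting of the counting was not found in the sources used here, so how reads in that stretch were assigned is unknown. In each of the other genes described here, at most 4.95% of exon bases lie over another gene. Homer2 overlapped between the groups (log2 fold change −0.31, adjusted p = 0.223 by edgeR).

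Of the spine adaptors, Lzts3 and Baiap2 fell and Ddn and Synpo did not pass. Lzts3 encodes ProSAPiP1, which binds SHANK and a RAP GTPase-activating protein of the SIPA1L family. Lzts3, at chromosome 2, 130632839 to 130642803 (minus strand), had 364, 339, 351 and 359 CPM in deletion mice 1 to 4, against 692, 562, 669.8 and 496 CPM in control mice 1 to 4. Deletion mice lay close together, and the lowest control mouse was still well above them. Lzts3 averaged 353 ± 11 CPM in deletion mice and 605 ± 92.4 CPM in control mice (SD, n = 4 each), at a log2 fold change of −0.78 (SE 0.10, edgeR adjusted p = 0.000389). Baiap2 encodes IRSp53, which shapes the spine membrane and binds actin regulators, and lies at chromosome 11, 119942763 to 120006782 (plus strand). Baiap2 had 352, 289, 340.2 and 328 CPM in deletion mice 1 to 4, against 420.2, 434, 458 and 431 CPM in control mice 1 to 4. All deletion mice were below all control mice. Baiap2 averaged 327 ± 27.6 CPM in deletion mice and 436 ± 16.1 CPM in control mice (SD, n = 4 each), at a log2 fold change of −0.41 (SE 0.07, edgeR adjusted p = 0.00165). Both calls held with each mouse left out in turn, with adjusted p of at most 0.00234 for Lzts3 and 0.00621 for Baiap2.

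Ddn, the gene of dendrin, a protein of dendrites, measured 812 to 885 CPM in deletion mice and 869.5 to 1147 CPM in control mice. Its log2 fold change was −0.34 (edgeR adjusted p = 0.0226, and 0.00156 by DESeq2). Control 4 was the only control mouse inside the range of the deletion mice, and without it the edgeR adjusted p was 0.00139. Ddn passed in only 1 of the 8 fits with 1 mouse left out, and without control 3 the edgeR adjusted p was 0.0756. Synpo, the gene of synaptopodin of the spine apparatus, was lower in all deletion mice (51.6 to 64.3 CPM against 66.1 to 75.2 CPM in control mice), with a log2 fold change of −0.20 that did not pass (adjusted p = 0.0968 by edgeR).

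The regulators of small GTPases changed in both directions, and in both families the gene that rose was not the most abundant one. Iqsec3, one of 3 genes for guanine nucleotide exchange factors of ARF GTPases and known from inhibitory synapses, rose. Iqsec3, at chromosome 6, 121372933 to 121473678 (minus strand), had 68.2, 56.2, 70 and 62.7 CPM in deletion mice 1 to 4, against 29.6, 39.5, 39.8 and 40.4 CPM in control mice 1 to 4. The groups were far apart, and control 1 was the lowest. Iqsec3 averaged 64.3 ± 6.23 CPM in deletion mice and 37.3 ± 5.16 CPM in control mice (SD, n = 4 each), at a log2 fold change of 0.78 (SE 0.10, edgeR adjusted p = 0.000614). Iqsec1 and Iqsec2, the paralogues of excitatory synapses, overlapped between the groups, with log2 fold changes of −0.15 (adjusted p = 0.214) and −0.14 (adjusted p = 0.358) by edgeR. Iqsec3 made up 21.9 ± 0.89% of the family's summed level per kilobase of exon in deletion mice and 12.8 ± 1.12% in control mice (SD, n = 4 each).

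RAP GTPases control spine shape, and the genes for their GTPase-activating proteins were Sipa1l1, Sipa1l2, Sipa1l3 and Rap1gap. Rap1gap, at chromosome 4, 137664726 to 137729861 (plus strand), had 256, 208, 253 and 263 CPM in deletion mice 1 to 4, against 438, 412, 467 and 374 CPM in control mice 1 to 4. All deletion mice were below all control mice, deletion 2 the lowest. Rap1gap averaged 245 ± 25.1 CPM in deletion mice and 423 ± 39.3 CPM in control mice (SD, n = 4 each), at a log2 fold change of −0.79 (SE 0.09, edgeR adjusted p = 0.000195), the lowest log2 fold change of the 39 genes. Sipa1l2, at chromosome 8, 125418063 to 125569808 (minus strand), had 60.3, 48.2, 50.4 and 49.0 CPM in deletion mice 1 to 4, against 32.9, 28.4, 26.6 and 35.5 CPM in control mice 1 to 4. Here every deletion mouse was above every control mouse. Sipa1l2 averaged 52.0 ± 5.61 CPM in deletion mice and 30.9 ± 4.11 CPM in control mice (SD, n = 4 each), at a log2 fold change of 0.75 (SE 0.10, edgeR adjusted p = 0.000698). Sipa1l3 was lower in all deletion mice (14.7 to 18.5 CPM against 19.0 to 25.5 CPM in control mice) but did not pass (log2 fold change −0.37, adjusted p = 0.0338 by edgeR; 0.00798 by DESeq2), and Sipa1l1, whose protein SPAR binds PSD-95, overlapped (−0.21, adjusted p = 0.141 by edgeR). Sipa1l2 made up 20 ± 2.07% of the summed Sipa1l level per kilobase of exon in deletion mice and 11.4 ± 1.94% in control mice, and Sipa1l1 76.2 ± 2.01% in deletion mice and 84.0 ± 1.92% in control mice (SD, n = 4 each). With each mouse left out in turn, the calls of Iqsec3, Rap1gap and Sipa1l2 all held, with adjusted p of at most 0.00301, 0.00108 and 0.00299.

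**Figure D2:**
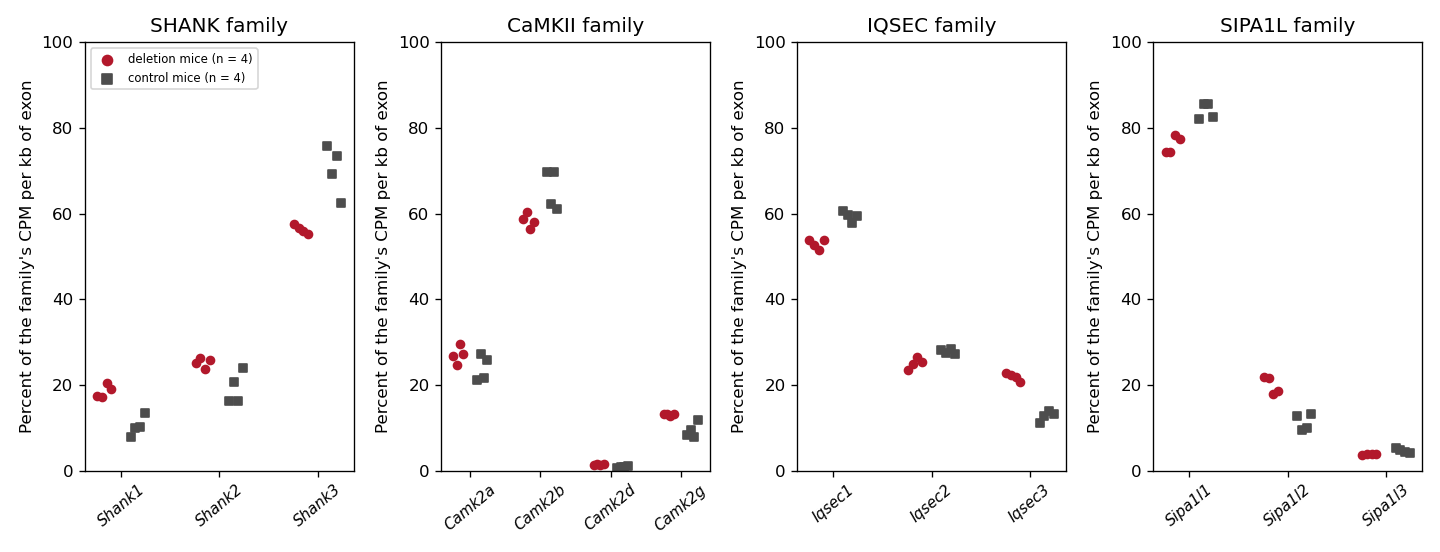
The panels plot each gene's percent of its family's summed CPM per kilobase of exon (y axis) for the SHANK, CaMKII, IQSEC and SIPA1L families, 1 red circle per deletion mouse and 1 grey square per control mouse (n = 4 each). The Shank3 share lay below every control mouse in all deletion mice, while those of Shank1, Iqsec3 and Sipa1l2 lay above every control mouse.

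Of Hpca, Ncs1, Nrgn and Ncdn, which act in calcium signalling of the spine, Hpca, Ncdn and Nrgn fell and Ncs1 did not pass. Hpca encodes hippocalcin, a calcium-dependent membrane switch, and lies at chromosome 4, 129111570 to 129122036 (minus strand). Hpca had 1016, 915, 984 and 977 CPM in deletion mice 1 to 4, against 1490.4, 1270.4, 1289 and 1174 CPM in control mice 1 to 4. The groups were apart, with control 4 the lowest control. Hpca averaged 973 ± 42.5 CPM in deletion mice and 1306 ± 133 CPM in control mice (SD, n = 4 each), at a log2 fold change of −0.42 (SE 0.08, edgeR adjusted p = 0.00399). Its call was lost without deletion 1 (adjusted p = 0.0107), deletion 3 (0.0147), deletion 4 (0.0131) or control 3 (0.0135) by edgeR. Ncdn encodes neurochondrin, which binds metabotropic glutamate receptors and restrains CaMKII phosphorylation, and lies at chromosome 4, 126743750 to 126753438 (minus strand). Ncdn had 1122, 916, 1045 and 1047 CPM in deletion mice 1 to 4, against 1508, 1296, 1608 and 1221 CPM in control mice 1 to 4. Again the groups did not overlap. Ncdn averaged 1032 ± 85.8 CPM in deletion mice and 1408 ± 180.0 CPM in control mice (SD, n = 4 each), at a log2 fold change of −0.45 (SE 0.10, edgeR adjusted p = 0.00962). It passed without control 4 (adjusted p = 0.00506 by edgeR) and lost its call without any one of the other 7 mice, with adjusted p from 0.014 to 0.0307.

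Nrgn encodes neurogranin, which holds calmodulin in its calcium-free state, and lies at chromosome 9, 37544492 to 37552904 (minus strand). Nrgn had 49.5, 67.7, 72.7 and 74.2 CPM in deletion mice 1 to 4, against 120.4, 92.0, 105 and 94.9 CPM in control mice 1 to 4. Deletion 1 was the lowest of all mice and control 1 the highest, and the groups did not overlap. Nrgn averaged 66.0 ± 11.4 CPM in deletion mice and 103 ± 12.8 CPM in control mice (SD, n = 4 each), at a log2 fold change of −0.64 (SE 0.12, edgeR adjusted p = 0.0052). Its call was lost without deletion 2 (adjusted p = 0.0108), deletion 3 (0.0109), control 1 (0.0135) or control 3 (0.0194) by edgeR. Ncs1, the gene of neuronal calcium sensor 1, was also lower in all deletion mice (217 to 253 CPM against 260 to 299 CPM in control mice) but did not pass (log2 fold change −0.19, adjusted p = 0.0678 by edgeR).

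Of the 2 calmodulin genes, Calm3 rose and Calm2 did not pass. Both encode the same protein, and they were the most abundant of the 39 genes per kilobase of exon (1546 CPM per kilobase in deletion mice and 1422 in control mice for Calm2, and 880.0 in deletion mice and 660.3 in control mice for Calm3). Calm3, at chromosome 7, 16915379 to 16924114 (minus strand), had 2133, 2159.6, 2047 and 2189.6 CPM in deletion mice 1 to 4, against 1640.3, 1584, 1531 and 1645 CPM in control mice 1 to 4. Every deletion mouse was above every control mouse, and the spread within each group was small. Calm3 averaged 2132 ± 61.5 CPM in deletion mice and 1599.9 ± 53.8 CPM in control mice (SD, n = 4 each), at a log2 fold change of 0.41 (SE 0.06, edgeR adjusted p = 0.00121). The call held with each mouse left out (adjusted p of at most 0.00672 by edgeR) and was narrowly lost, at 0.0101, without deletion 4 and control 4 together. Calm2 had 2253, 2333, 2197 and 2286 CPM in deletion mice 1 to 4, against 2179, 2099.7, 1903 and 2162 CPM in control mice 1 to 4. The deletion mice were all above the control mice by a narrow margin, and Calm2 averaged 2267 ± 56.9 CPM in deletion mice and 2086 ± 127 CPM in control mice (SD, n = 4 each), at a log2 fold change of 0.12 (SE 0.07, edgeR adjusted p = 0.282). The coding sequences of Calm2 and Calm3 are alike and calmodulin pseudogenes exist, and how reads that fit several places were counted is not given in the sources used here, so the split of reads between them is uncertain.

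**Figure D3:**
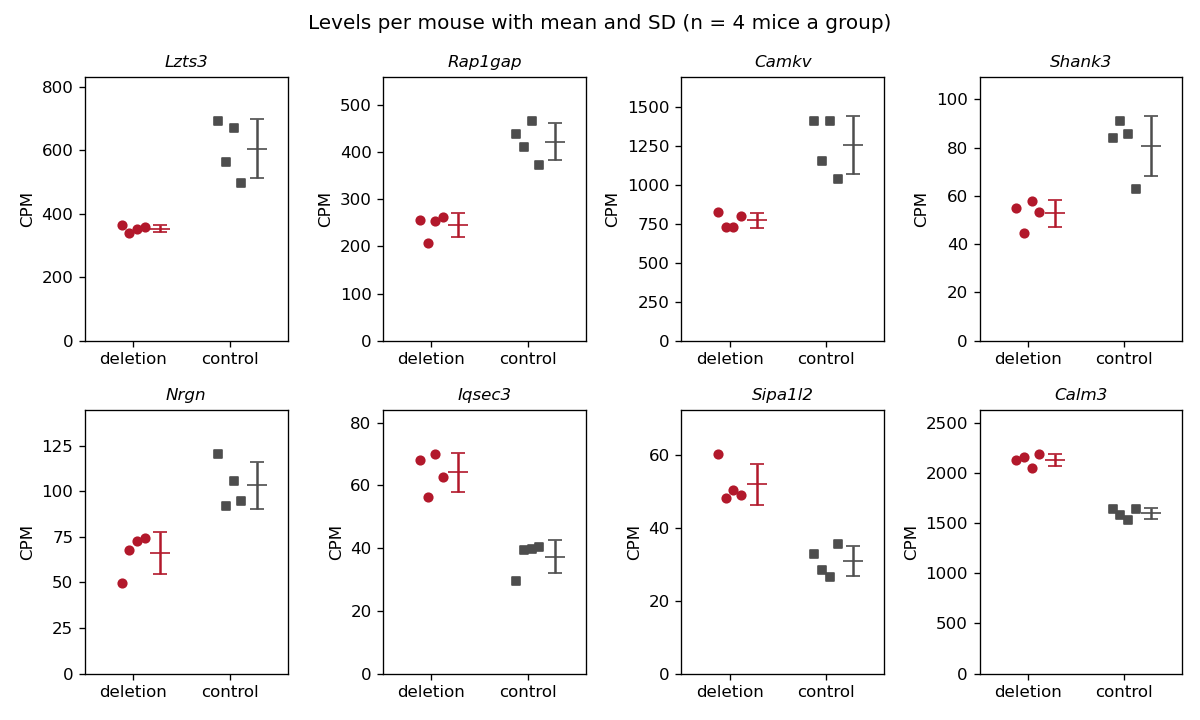
Each panel plots the CPM of 1 gene per mouse (y axis, from 0) in deletion mice (red circles, left) and control mice (grey squares, right), with the mean and SD of each group (n = 4). Lzts3, Rap1gap, Camkv, Shank3 and Nrgn lie lower in all deletion mice, and Iqsec3, Sipa1l2 and Calm3 higher.

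CaMKII, the most abundant kinase of the postsynaptic density, is built from subunits encoded by Camk2a, Camk2b, Camk2d and Camk2g. By edgeR 0 of the 4 passed, with 3 at an unadjusted p under 0.05 (2 higher and 1 lower), 2 called by DESeq2 and 1 by limma-voom. Camk2a had 287, 248, 350.5 and 319 CPM in deletion mice 1 to 4, against 249, 318, 280.3 and 322 CPM in control mice 1 to 4. The groups overlapped almost fully, and Camk2a averaged 301 ± 44.1 CPM in deletion mice and 292 ± 34.5 CPM in control mice (SD, n = 4 each), at a log2 fold change of 0.04 (SE 0.11, edgeR adjusted p = 0.846). Camk2b had 769, 740.3, 814 and 835 CPM in deletion mice 1 to 4, against 1004, 886, 1101 and 934 CPM in control mice 1 to 4. All deletion mice were below all control mice, and Camk2b averaged 789.7 ± 43.0 CPM in deletion mice and 981 ± 93.5 CPM in control mice (SD, n = 4 each), at a log2 fold change of −0.31 (SE 0.08, edgeR adjusted p = 0.0166); the adjusted p was 0.000728 by DESeq2 and 0.00971 by limma-voom. Camk2d was higher in all deletion mice (44.0 to 54.9 CPM against 24.3 to 42.5 CPM in control mice, log2 fold change 0.58, adjusted p = 0.0168 by edgeR; 0.00045 by DESeq2). Camk2g overlapped through control 4 alone (114 to 133 CPM in deletion mice, 85.0 to 128 CPM in control mice, log2 fold change 0.33, adjusted p = 0.0798 by edgeR). Without control 4, both passed by edgeR, with adjusted p of 0.00122 for Camk2d and 0.000901 for Camk2g. Each passed in only 1 of the 8 fits with 1 mouse left out. Without control 3 the edgeR adjusted p was 0.0525 for Camk2d and 0.197 for Camk2g. Camk2b made up 58.4 ± 1.69% of the summed CaMKII level per kilobase in deletion mice and 65.7 ± 4.67% in control mice, and Camk2g 13.1 ± 0.25% in deletion mice and 9.41 ± 1.83% in control mice (SD, n = 4 each), with no overlap of the groups for either share. The summed level itself was 134 to 158 CPM per kilobase in deletion mice and 156 to 173 in control mice.

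In the CaM kinase cascade, Camkv and both CaM kinase kinases fell, while Camk4, a nuclear target of these kinases, did not pass. Camkv encodes a calmodulin-binding pseudokinase of spines and lies at chromosome 9, 107935674 to 107949691 (plus strand). Camkv had 828, 732, 732 and 799 CPM in deletion mice 1 to 4, against 1410.0, 1157, 1409 and 1041 CPM in control mice 1 to 4. Every deletion mouse was below every control mouse. Camkv averaged 773 ± 48.5 CPM in deletion mice and 1254 ± 185 CPM in control mice (SD, n = 4 each), at a log2 fold change of −0.70 (SE 0.10, edgeR adjusted p = 0.00102), and the call held with each mouse left out (adjusted p of at most 0.00555). Camkk1, which phosphorylates CaM kinases I and IV, lies at chromosome 11, 73019008 to 73042073 (plus strand). Camkk1 had 113, 102, 117 and 126 CPM in deletion mice 1 to 4, against 168, 142, 173 and 138 CPM in control mice 1 to 4. The groups were apart, and deletion 4 and control 4 came nearest to each other. Camkk1 averaged 115 ± 9.76 CPM in deletion mice and 155 ± 17.8 CPM in control mice (SD, n = 4 each), at a log2 fold change of −0.44 (SE 0.09, edgeR adjusted p = 0.00563). Its call was lost without deletion 1 (adjusted p = 0.0203), deletion 2 (0.0129), deletion 3 (0.0172), control 1 (0.0158) or control 3 (0.0189) by edgeR. Camkk2, which also phosphorylates AMP-activated kinase, lies at chromosome 5, 122731170 to 122779409 (minus strand). Camkk2 had 205, 206, 212 and 219.7 CPM in deletion mice 1 to 4, against 264, 255, 239.8 and 234 CPM in control mice 1 to 4. The decrease was small but the groups did not overlap. Camkk2 averaged 211 ± 6.77 CPM in deletion mice and 248 ± 13.5 CPM in control mice (SD, n = 4 each), at a log2 fold change of −0.24 (SE 0.05, edgeR adjusted p = 0.00895). With control 4 left out it passed (adjusted p = 0.0084 by edgeR), without any one of the other 7 mice it did not (0.0158 to 0.0338), and with no filter on low counts its adjusted p was 0.0126. Camk4, the kinase that phosphorylates CREB in the nucleus, had 209.6, 199, 217 and 217 CPM in deletion mice 1 to 4, against 204, 198, 191 and 182 CPM in control mice 1 to 4. The groups overlapped slightly, and Camk4 averaged 211 ± 8.37 CPM in deletion mice and 194 ± 9.33 CPM in control mice (SD, n = 4 each), at a log2 fold change of 0.12 (SE 0.05, edgeR adjusted p = 0.134).

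**Figure D4:**
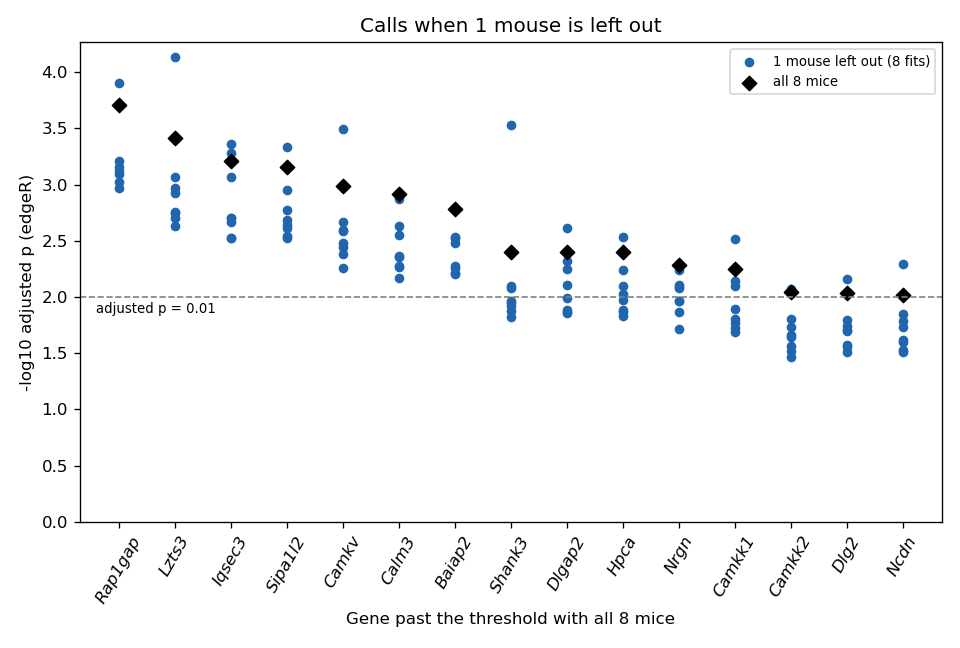
For the 15 genes past the threshold with all 8 mice, the y axis gives the −log10 of edgeR's adjusted p with all mice (black diamonds) and with 1 mouse left out in turn (blue circles, 8 per gene), and the dashed line marks 0.01. The 7 genes at the left (Rap1gap, Lzts3, Iqsec3, Sipa1l2, Camkv, Calm3 and Baiap2) stay above the line in all 8 fits, and the other 8 cross it.

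The mice within a group also differed across these genes. Deletion 2 was the lowest deletion mouse in 29 of the 39 genes, while it was the lowest in 32.6% of all genes tested. Control 4 was the lowest control mouse in 8 of the 12 genes that fell (25.0% of all genes tested), and it had the lowest Bcl11b of the control mice. Deletion 4 and control 4, the libraries with the highest cortical markers, were both the highest of their group in 7 of the genes: Dlg1, Dlg3, Dlgap1, Homer2, Calm3, Camk2d and Camk2g. Over all genes tested, deletion 4 was the highest of its group in 26.2% and control 4 in 25.1%. How often both held at once was not counted.

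Of 49 further postsynaptic and calmodulin-related genes, 7 rose, 4 fell and 38 did not pass, with a median log2 fold change of 0.00. Among all genes tested 4.87% rose and 3.91% fell, and among those at 7.58 CPM or more 7.60% rose and 6.12% fell. The 6 with the smallest p were Synpo2, Hpcal1, Mpp3, Camk1, Nos1ap and Ppp1r9a. Synpo2, a relative of synaptopodin, averaged 5.45 ± 0.638 CPM in deletion mice and 16.1 ± 3.40 CPM in control mice (SD, n = 4 each), at a log2 fold change of −1.57 (SE 0.15, edgeR adjusted p = 9.4e-05). Hpcal1, a relative of hippocalcin, averaged 18 ± 2.13 CPM in deletion mice and 9.12 ± 1.12 CPM in control mice (SD, n = 4 each), at a log2 fold change of 0.98 (SE 0.12, edgeR adjusted p = 0.000287). Hpcal1 thus rose in the same mice in which Hpca fell. Mpp3, a MAGUK, averaged 206 ± 9.27 CPM in deletion mice and 103 ± 22.7 CPM in control mice (SD, n = 4 each), at a log2 fold change of 1.0 (SE 0.13, edgeR adjusted p = 0.000505). Camk1, a target of the CaM kinase kinases, averaged 65.3 ± 3.13 CPM in deletion mice and 35.8 ± 7.48 CPM in control mice (SD, n = 4 each), at a log2 fold change of 0.87 (SE 0.12, edgeR adjusted p = 0.000827). Nos1ap, an adaptor of neuronal nitric oxide synthase, averaged 43.7 ± 5.73 CPM in deletion mice and 19.7 ± 5.07 CPM in control mice (SD, n = 4 each), at a log2 fold change of 1.15 (SE 0.17, edgeR adjusted p = 0.00103). Ppp1r9a, the gene of the spine protein neurabin, averaged 873 ± 42.4 CPM in deletion mice and 1135 ± 66.1 CPM in control mice (SD, n = 4 each), at a log2 fold change of −0.38 (SE 0.06, edgeR adjusted p = 0.00252). Of these 6, 4 rose and 2 fell.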

How the data were processed

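The authors deposited raw counts per gene and a table of rlog values; only the counts were used. Per the labels and methods, rRNA-depleted libraries (TruSeq RNA v2) were sequenced as paired reads, trimmed with Trim Galore 0.6.4, aligned with STAR 2.7.2b (the submitters' processing notes name the mouse builds GRCm38.p6 and mm10 and, with no role given, GRCh38.p6) and counted with featureCounts; the sources used here give neither the strand nor the multimapping setting.

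Counts were analysed in R 4.3.3 with edgeR 4.0.16: filterByExpr (minimum count 10, minimum total 15), TMM, a quasi-likelihood F-test on group alone, and Benjamini-Hochberg adjustment over 22173 genes, with the study's threshold of 0.01. Each library is a separate mouse, and total counts ranged from 47059264 to 70247098. Pairs of libraries within a group differed by 11.8 to 57.6 times the variance of counting alone, so none was the same library sequenced again. This measure cannot tell separate mice from separate preparations of the same RNA. Exon lengths and positions came from GENCODE (GRCm38) and promoter windows from RefSeq. The exon length of a gene is the merged length of all its annotated exons, not that of an expressed transcript. Levels per kilobase and family shares therefore depend on the annotation. Shares within a family are parts of 1 whole, so they do not move independently. Alternatives were DESeq2 1.42.0, limma-voom (limma 3.58.1), all genes unfiltered, genes with 1 CPM in at least 4 mice, RLE size factors, unadjusted library sizes, a replicate block and each mouse left out.

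The 39 genes, the lists and the tests were chosen with earlier results of these data known. All 39 genes are named; values per mouse are given for those past the threshold and for Dlg4, Homer1, Calm2, Camk2a, Camk2b and Camk4, and up to 6 further genes were taken from the other list by p.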

Additional observations from a re-analysis of the deposited data

Results flagged for a closer look

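Each of the 39 genes and each summed gene list was examined in both groups of mice, which gave 96 sets of 4 values. In 8 of these sets 1 mouse stood apart from the other 3. Chance gives about 1 in 20 for a single set. The sets come from the same 8 mice and are not independent, so their number cannot be compared with that rate. Deletion 2 was the low mouse in 5 of the 8 sets. It had 31.2 CPM of Dlgap4 (the other deletion mice 40.8 to 43.1), 51.6 CPM of Synpo (62.0 to 64.3), 113 CPM of Iqsec1 (138 to 142), 208 CPM of Rap1gap (253 to 263) and 217 CPM of Ncs1 (248 to 253). Control 1 was the low mouse for Dlg2, at 469 CPM against 515 to 518 CPM in the other control mice, and for Iqsec3, at 29.6 CPM against 39.5 to 40.4 CPM. Control 4 was the low mouse for Ddn, at 870 CPM against 1096 to 1147 CPM. Without deletion 2, Rap1gap kept its call.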

How the results depend on the processing

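Of the 39 genes, 12 fell and 3 rose. With DESeq2, 6 rose and 15 fell, beside 13.5% of all genes called in either direction. With no filter on low counts, 5 rose and 13 fell, beside 5.72% of all genes called. With 1 mouse left out, 4 to 12 fell and 3 to 5 rose: 4 fell without control 3, 5 without deletion 1 or deletion 3 and 7 without deletion 2, deletion 4, control 1 or control 2, and 5 rose without control 4. Over all genes tested, 1079 rose and 868 fell. DESeq2 called 1687 as higher and 1517 as lower, and with 1 mouse left out 631 to 1160 rose and 471 to 906 fell. In the fits with 1 mouse left out, 4.86% to 9.07% of all genes tested were called in either direction. Of the 49 further genes, 7 rose and 4 fell, and with 1 mouse left out 4 to 8 rose and 2 to 4 fell; without deletion 4 and control 4 together, chosen after seeing the data, 2 fell.

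The replicate numbers of the labels left no visible pairing of the mice. The correlation of deviations between mice of the same number was −0.23 to 0.06. For each deletion mouse the highest correlation with a control mouse of another number was larger, at 0.07 to 0.24. That highest value was picked from several, so it tends to exceed a single value whether or not mice were paired. Such weak correlations cannot exclude that mice were paired. With the replicate number as a block, 673 genes rose and 492 fell, 3 of the 39 genes rose and 4 fell, and 2 of the further genes fell. Of these 7, 6 were among the 15 called without the block: Camk2d was gained (adjusted p = 0.00386 by edgeR), while Calm3 (0.0104), Ncdn, Hpca, Camkk2, Dlg2, Dlgap2, Nrgn, Camkk1 and Shank3 were lost.

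The sign of 2 genes far from the threshold changed: Dlgap1 had a log2 fold change of 0.025 without deletion 2 and 0.047 without control 4, and Camk2a −0.038 without deletion 3 and −0.027 without control 1 (ranges with 1 mouse left out, −0.16 to 0.047 for Dlgap1 and −0.038 to 0.13 for Camk2a). Over single genes and alternatives, 543 values kept direction and side of the threshold, 58 lost the threshold, 19 passed it and 4 changed sign. The cause of these differences was not tested, and the fits with 1 mouse left out also hold fewer mice.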
